A study of Mus musculus with 22 samples.

Results

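Sestrins and a group of stress-response genes known as targets or partners of the transcription factors FOXO and p53 were followed in macrophages treated with lipopolysaccharide (LPS). The 10 genes were Sesn1, Sesn2, Sesn3, Ddit4, Cdkn1a, Cdkn1b, Foxo1, Foxo3, Ccng2 and Trp53inp1. They were represented by 13 probes among 55681 non-control probes of the array, and all 13 probes and 10 genes were among those kept for testing, which comprised 22366 genes. The group was chosen by the wild-type arrays: it was assembled around Sesn1, whose LPS minus medium difference there was the lowest of all genes, at -7.12 on the log2 scale, just ahead of Bmf at -7.04 and Rtn4rl1 at -6.87. The wild-type LPS response is therefore given as a description without a test for all 10 genes, as is each comparison of a knockout response with it, and Sesn1 was not tested in any comparison with wild-type cells.

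Sestrins are stress-inducible proteins that restrain the growth-promoting kinase complex mTORC1 by binding GATOR2, a part of the machinery that reports amino acid supply to it. Ddit4 encodes REDD1, which also restrains mTORC1, through the TSC complex. FOXO factors are held inactive in the cytosol when AKT is active and otherwise drive genes for cell cycle arrest, stress resistance and metabolism, while p53 drives arrest, repair and death genes after DNA damage. LPS is a bacterial cell wall molecule that macrophages sense through TLR4. It activates, among other kinases, p38 and its substrates MK2 and MK3, which control the stability and translation of inflammatory transcripts.

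Bone marrow-derived macrophages (BMDM) were grown with M-CSF from the femurs of C57BL/6 mice labelled male and 10 to 14 weeks old, the background of the deficient animals being C57BL/6J in the methods. The mice were wild-type (wt), deficient in MK2 (MK2-/-) or deficient in both MK2 and MK3 (MK2/3-/-). By the methods, cells were changed to medium without M-CSF before the experiments. Cells received 100 ng/ml LPS or medium alone for 360 min. There were 3 wt arrays with LPS and 4 with medium, 4 and 4 for MK2-/-, and 4 and 3 for MK2/3-/-, making 22 arrays. The methods speak of 4 independent experiments per time point, whereas LPS-treated wt and medium-treated MK2/3-/- BMDM had 3 arrays. No label says whether each array stands for a separate animal, so p-values measure the spread between these samples only, and the number of arrays limits the precision.

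Values are log2 processed signals after quantile normalisation, and a gene is called when its limma adjusted p, over all 22366 genes, is below 0.05. For genes other than the cell type markers, levels are compared between groups for a single probe and never between probes. Marker levels are summed over probes. All arrays of a genotype lay on 1 slide, so genotype and slide cannot be told apart when genotypes are compared directly. Under LPS, Mapkapk2, encoding MK2, was between 14.28 and 15.33 in wt and between 10.86 and 11.95 in knockout arrays. In medium it was between 10.77 and 12.39 in wt and between 8.34 and 9.01 in knockout arrays. Mapkapk3, encoding MK3, was between 7.65 and 8.55 in LPS-treated MK2/3-/- arrays against at least 11.92 in the other LPS-treated arrays. In medium Mapkapk3 was between 10.94 and 11.40 in MK2/3-/- arrays against at least 12.39 in the others. The median signal of an array was between 32.7 and 108, and 61% to 82.7% of its probes were well above background.

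Some arrays stood apart. Replicate 3 of LPS-treated and replicate 3 of medium-treated MK2-/- BMDM had Ddx3y, a Y-linked gene, at 1.99 and 2.01 against at least 10.09 on the other 20 arrays, although labelled male, and the first of them had 2927 spots set to missing against at most 261 elsewhere. Without both arrays the number of members called was the same in each of the 9 tested comparisons. Replicate 4 of medium-treated wt BMDM had Il6 at 13.36 and Il1b at 14.38, above the 6.41 to 10.02 and 9.71 to 10.96 of the other medium-treated wt arrays. Of 8 macrophage markers, 7 had a probe, and these were well above background on all 22 arrays. Under LPS they summed to 18.82 to 19.10 in MK2/3-/-, 19.04 to 19.27 in MK2-/- and 18.75 to 18.92 in wt BMDM. In medium their summed level was 19.09 to 19.53 over all genotypes. The summed level of 5 fibroblast markers ranged widely within every group, from 9.41 to 16.66 over the 22 arrays, led by Col1a1 and Col1a2. That of 3 dendritic cell markers was higher with LPS (10.39 to 11.97) than in medium (7.5 to 8.89) in every genotype. Of 5 neutrophil markers 4 had a probe, and under LPS they summed to 11.74 to 12.29 in MK2/3-/-, 10.92 to 11.58 in MK2-/- and 11.17 to 11.53 in wt BMDM. The 4 T cell markers summed under LPS to 10.77 to 11.90 in MK2/3-/-, 11.62 to 12.08 in MK2-/- and 10.84 to 11.36 in wt BMDM. Among the T cell markers Cd3e was well above background on all 22 arrays and Cd3g on 2. The 4 B cell markers summed under LPS to 8.17 to 8.28 in MK2/3-/-, 7.38 to 7.76 in MK2-/- and 7.5 to 8.23 in wt BMDM. The 3 erythroid markers summed to at most 5.81. Signals were summed before taking log2, so the brightest marker of a set weighs most. By the median over the 22 arrays, that was Elane (11.3, next Camp 8.25) among neutrophil and Cd3e (11.3, next Cd8a 5.87) among T cell markers. Among dendritic cell markers it was Zbtb46 (9.13, next Flt3 6.68). The part of these markers in the results below was not tested. In bulk RNA, fewer cells of a type and less RNA per cell cannot be told apart.

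To show the sequence context of the members, the promoter windows in the RefSeq table (assembly GRCm38.p6), each covering 250 bases before a gene start and 50 after it, were searched for 3 motifs. The table held 11 windows for 9 of the 10 genes, and Trp53inp1 had no entry. The motifs were the FOXO core GTAAACA on both strands, the C/EBP-ATF composite TGATGNAA on both strands, which is a known binding site of the stress factor ATF4, and the p53 element, a palindrome of adjacent half-sites, with at most 1 mismatch. Both windows of Sesn1, the member with the largest change, 1 of the 2 windows of Cdkn1a, a classical p53 target, and the window of Ddit4, the member whose LPS-treated level differed most between the knockouts, are printed here 5′ to 3′ along the gene, with motif matches in capitals.

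Sesn1 window 1, chr10:41810324-41810623, plus strand: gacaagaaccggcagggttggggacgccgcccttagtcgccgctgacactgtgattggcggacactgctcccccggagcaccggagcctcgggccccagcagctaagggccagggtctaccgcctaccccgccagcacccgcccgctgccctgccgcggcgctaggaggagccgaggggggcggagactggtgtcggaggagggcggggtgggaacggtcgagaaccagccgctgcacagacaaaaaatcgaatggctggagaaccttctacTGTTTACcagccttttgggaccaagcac

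Sesn1 window 2, chr10:41887189-41887488, plus strand: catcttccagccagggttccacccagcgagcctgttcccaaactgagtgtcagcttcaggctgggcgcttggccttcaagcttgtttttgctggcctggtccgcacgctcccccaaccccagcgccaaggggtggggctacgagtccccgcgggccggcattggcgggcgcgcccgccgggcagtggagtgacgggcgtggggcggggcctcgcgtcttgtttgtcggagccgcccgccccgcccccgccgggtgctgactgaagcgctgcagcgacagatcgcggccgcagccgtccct

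Cdkn1a window 1, chr17:29090729-29091028, plus strand: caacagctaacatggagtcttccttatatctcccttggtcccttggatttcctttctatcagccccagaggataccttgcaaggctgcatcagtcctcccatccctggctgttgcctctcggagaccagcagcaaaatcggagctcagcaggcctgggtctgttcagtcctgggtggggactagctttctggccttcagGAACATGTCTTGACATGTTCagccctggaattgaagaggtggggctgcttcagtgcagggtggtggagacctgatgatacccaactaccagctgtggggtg

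Ddit4, chr10:59951721-59952020, minus strand: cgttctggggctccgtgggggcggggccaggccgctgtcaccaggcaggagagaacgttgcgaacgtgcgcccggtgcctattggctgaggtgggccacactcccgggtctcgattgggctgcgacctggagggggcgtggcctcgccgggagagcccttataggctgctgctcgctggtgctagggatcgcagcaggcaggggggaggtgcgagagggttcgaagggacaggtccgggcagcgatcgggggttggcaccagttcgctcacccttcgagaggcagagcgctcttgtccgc

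The FOXO core occurred in 1 of the 11 windows, in the first Sesn1 window on the reverse strand and 22 bases after the start, and in 3.65% of all 32851 windows. The p53 element occurred in 1 of the 11 windows, the first of Cdkn1a, beginning at position -51 from the start, and in 0.0883% of all windows. The other Cdkn1a window, chr17:29093519-29093818 on the plus strand, was not printed and held none of the motifs. The C/EBP-ATF composite occurred in none of the 11 windows and in 3.97% of all. The matches overlapped no other motif searched. They describe letters in these windows only, and binding was not measured.

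**Figure D1:**
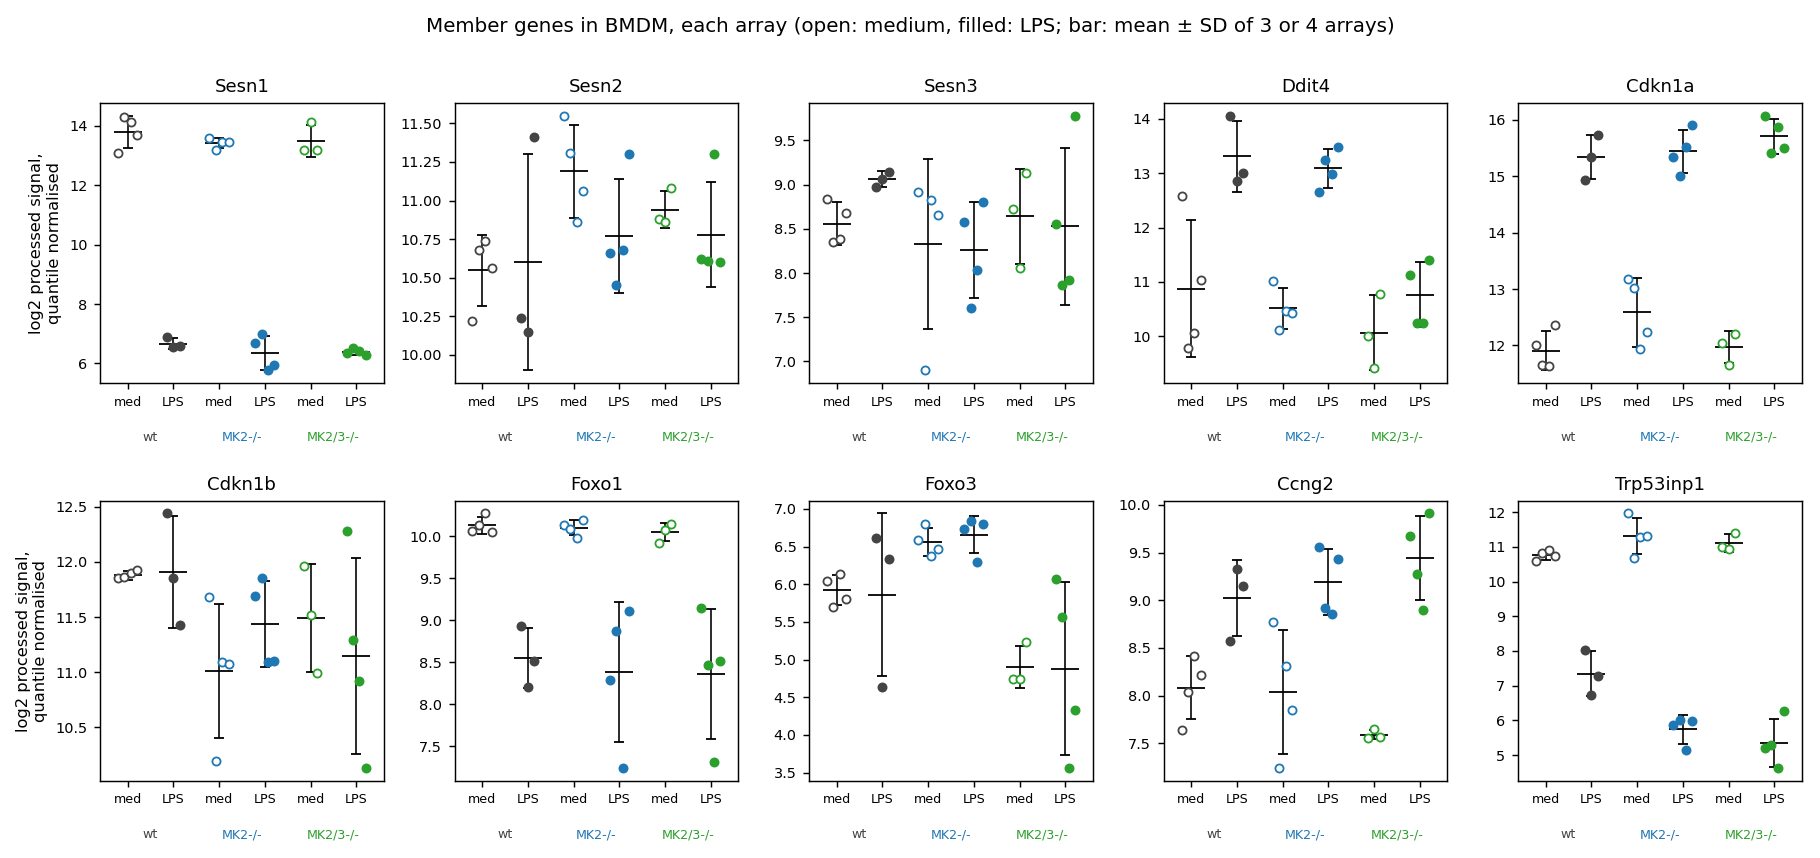
Each of the 10 panels plots the log2 processed signal of 1 member (y axis) in medium and LPS for wt, MK2-/- and MK2/3-/- BMDM, with a point per array and a bar for the mean and SD of 3 or 4 arrays. LPS-treated arrays of Sesn1 sit between 5.77 and 6.99, below all medium-treated arrays, and LPS-treated MK2/3-/- arrays of Ddit4 sit between 10.24 and 11.40, below the other LPS-treated arrays.

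Sesn1, a p53- and FOXO-responsive sestrin, had a low signal on every LPS-treated array of every genotype. Its probe (NM_001162908) read 13.08, 14.30, 14.13 and 13.68 in medium-treated and 6.89, 6.54 and 6.58 in LPS-treated wt BMDM. For MK2-/- BMDM the values were 13.60, 13.17, 13.45 and 13.47 in medium and 6.69, 6.99, 5.77 and 5.96 with LPS. In MK2/3-/- BMDM it read 13.17, 14.12 and 13.20 in medium and 6.34, 6.52, 6.41 and 6.28 with LPS. Every LPS-treated array was thus far below every medium-treated array, and the probe was still well above background on all 22. The fall was 134-fold in MK2-/- (log2 difference -7.07, SE 0.29, adjusted p 4.40e-12) and 138-fold in MK2/3-/- BMDM (-7.11, SE 0.31, adjusted p 2.80e-11), ranking 6th and 13th from the deepest of 22366 genes. Between the knockouts neither the LPS-treated level (0.03, SE 0.29, adjusted p 0.962), the medium-treated level (0.08, SE 0.31, adjusted p 0.952) nor the LPS response (-0.04, SE 0.42, adjusted p 0.993) passed the test. With normexp background correction the wt difference was -6.41, the smallest among the alternatives.

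The other sestrins were not called. Sesn2, the sestrin best known as a leucine sensor and as an ATF4 target, lay between 10.15 and 11.55 on all arrays. Its LPS difference was 0.05 (SE 0.28) in wt, -0.42 (SE 0.26, adjusted p 0.210) in MK2-/- and -0.16 (SE 0.28, adjusted p 0.690) in MK2/3-/- BMDM, and the groups overlapped in each genotype. In medium, all MK2-/- and all MK2/3-/- values of Sesn2 lay above all wt values, with differences of 0.64 (adjusted p 0.128) and 0.39 (adjusted p 0.520) that did not pass the test. Sesn3, a FOXO target, lay between 6.90 and 9.78, with LPS differences of 0.50 (SE 0.47) in wt, -0.07 (SE 0.44, adjusted p 0.915) in MK2-/- and -0.11 (SE 0.47, adjusted p 0.877) in MK2/3-/- BMDM. Neither gene was called in any comparison tested.

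**Figure D2:**
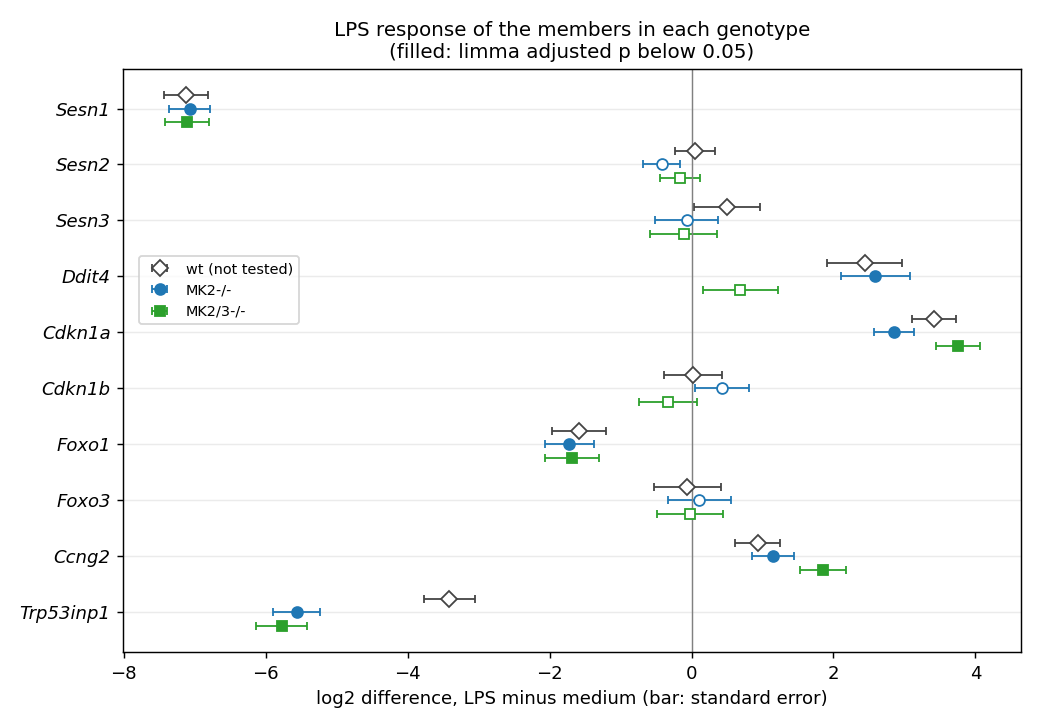
The x axis is the log2 difference, LPS minus medium, with its standard error, for the 10 members (y axis) in wt (diamonds, not tested), MK2-/- (circles) and MK2/3-/- BMDM (squares), filled where the limma adjusted p was below 0.05. Sesn1 lies near -7 in all genotypes, and Ddit4 is filled in MK2-/- but not in MK2/3-/- BMDM.

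Ddit4 was the member whose LPS-treated level separated the double knockout from the other genotypes. In wt BMDM its probe (NM_029083) read 12.59, 9.79, 10.06 and 11.04 in medium and 14.06, 12.85 and 13.01 with LPS. For MK2-/- BMDM the values were 11.02, 10.12, 10.46 and 10.43 in medium and 12.65, 13.25, 12.98 and 13.49 with LPS. In MK2/3-/- BMDM it read 10.00, 9.41 and 10.78 in medium and 11.13, 10.25, 10.24 and 11.40 with LPS. The LPS-treated values of MK2/3-/- BMDM overlapped the medium-treated ones and lay below all LPS-treated values of wt and MK2-/- BMDM. Ddit4 rose 6.00-fold with LPS in MK2-/- BMDM (log2 difference 2.59, SE 0.49, adjusted p 0.000206), and the wt difference was 2.44 (SE 0.53). In MK2/3-/- BMDM the difference was 0.69 (SE 0.53, adjusted p 0.304). Among medium-treated wt arrays, replicate 1 was close to the LPS-treated level.

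Under LPS, Ddit4 was 5.05-fold lower in MK2/3-/- than in MK2-/- BMDM (log2 difference -2.34, SE 0.49, adjusted p 0.00362) and 5.86-fold lower than in wt BMDM (-2.55, SE 0.53, adjusted p 0.00225), while MK2-/- and wt BMDM differed by -0.22 (SE 0.53, adjusted p 0.819). The call against wt was lost with the methods' t-test adjusted by Benjamini-Hochberg (adjusted p 0.0783). The neutrophil and B cell marker sums were also separated between these LPS-treated knockout groups, and the neutrophil sums between LPS-treated MK2/3-/- and wt BMDM. Elane weighs most in the neutrophil sum. The part of these markers in the Ddit4 differences was not tested. In medium the difference between the knockouts was -0.44 (SE 0.53, adjusted p 0.779). The LPS response itself was lower in MK2/3-/- than in MK2-/- BMDM by 1.89 on the log2 scale, a difference of -1.89 (SE 0.72, unadjusted p 0.0163) that did not pass the adjustment over all genes (adjusted p 0.462). The corresponding differences from the wt response were 0.15 (SE 0.72) for MK2-/- and -1.75 (SE 0.74) for MK2/3-/- BMDM, without a test.

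Cdkn1a, encoding the CDK inhibitor p21, rose in both knockouts. The brighter probe (NM_007669), with 10 spots per array, read 12.00, 11.65, 11.64 and 12.37 in medium and 14.93, 15.33 and 15.72 with LPS in wt BMDM. In MK2-/- BMDM it read 13.18, 13.02, 11.93 and 12.24 in medium and 15.34, 15.00, 15.52 and 15.91 with LPS, and in MK2/3-/- BMDM 12.04, 11.66 and 12.20 in medium and 16.07, 15.41, 15.87 and 15.50 with LPS. All LPS-treated arrays were above all medium-treated arrays. The rise was 7.20-fold in MK2-/- (log2 difference 2.85, SE 0.28, adjusted p 9.84e-08) and 13.4-fold in MK2/3-/- BMDM (3.75, SE 0.31, adjusted p 8.84e-09), against a wt difference of 3.41 (SE 0.31). The difference between the knockout responses, 0.90 (SE 0.42), had an unadjusted p of 0.0446 and an adjusted p of 0.561. MK2/3-/- minus MK2-/-, the level differed by 0.27 under LPS (SE 0.28, adjusted p 0.587) and by -0.62 in medium (SE 0.31, adjusted p 0.348). A dimmer probe for another transcript of the gene (NM_001111099) read 0.89 higher with LPS in wt, 0.83 higher in MK2-/- (adjusted p 0.0999) and 1.45 higher in MK2/3-/- BMDM (adjusted p 0.00519). For dimmer probes p-values were adjusted over 28086 kept probes. The value of replicate 3 of LPS-treated MK2-/- BMDM was missing for that probe and was left out of its fit.

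Trp53inp1, a p53-induced gene linked to autophagy and cell death, gave different results with its 2 probes, which carry the same transcript accession (NM_021897). The brighter probe read 10.58, 10.81, 10.90 and 10.72 in medium and 8.04, 6.73 and 7.28 with LPS in wt BMDM. In MK2-/- BMDM it read 11.96, 10.67, 11.29 and 11.31 in medium and 5.87, 6.00, 5.14 and 5.98 with LPS, and in MK2/3-/- BMDM 11.00, 10.93 and 11.41 in medium and 5.20, 5.30, 4.63 and 6.27 with LPS. It was lower with LPS on every array, and the LPS-treated knockouts lay below the LPS-treated wt arrays. The fall was 47.3-fold in MK2-/- (log2 difference -5.56, SE 0.33, adjusted p 1.63e-10) and 54.4-fold in MK2/3-/- BMDM (-5.77, SE 0.36, adjusted p 3.49e-10), against a wt difference of -3.41 (SE 0.36). Under LPS the knockouts were 3.04-fold and 4.00-fold lower than wt (-1.60, adjusted p 0.0107, and -2.0, adjusted p 0.000874), but leaving out replicate 1 of LPS-treated wt BMDM ended the call for MK2-/-. Under LPS the T cell marker sum was also higher on every MK2-/- than on every wt array (at least 11.62 against at most 11.36). So was the macrophage marker sum (at least 19.04 against at most 18.92). The neutrophil sum was higher on every MK2/3-/- than on every wt array (at least 11.74 against at most 11.53). Cd3e weighs most in the T cell sum and Elane in the neutrophil sum. The part of these markers in the Trp53inp1 differences was not tested. The knockouts themselves differed by -0.40 under LPS (SE 0.33, adjusted p 0.484).

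The dimmer Trp53inp1 probe read 7.63, 7.73, 8.43 and 7.49 in medium and 7.40, 6.04 and 6.97 with LPS in wt BMDM. It read 7.88, 7.81, 7.53 and 7.65 in medium and 5.35, 5.54, 5.77 and 6.20 with LPS in MK2-/- BMDM, and 7.97, 8.17 and 8.24 in medium and 7.41, 7.78, 7.85 and 7.37 with LPS in MK2/3-/- BMDM. LPS-treated values lay below medium-treated ones in each genotype, most clearly in MK2-/- BMDM. It fell in MK2-/- BMDM (-2.0, SE 0.26, adjusted p 3.18e-06) and differed by -0.52 (SE 0.28, adjusted p 0.137) in MK2/3-/- BMDM. Under LPS it was 3.70-fold higher in MK2/3-/- than in MK2-/- BMDM (1.89, SE 0.26, adjusted p 0.000119), opposite in sign to the brighter probe. The part in this of the neutrophil and B cell markers, whose sums were separated between the same groups, was not tested. Against wt the dimmer probe was lower in MK2-/- (-1.09, adjusted p 0.0207) and higher in MK2/3-/- BMDM (0.80, adjusted p 0.0465). The genotype order of Trp53inp1 under LPS therefore depends on the probe, and which transcripts each probe detects was not tested.

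**Figure D3:**
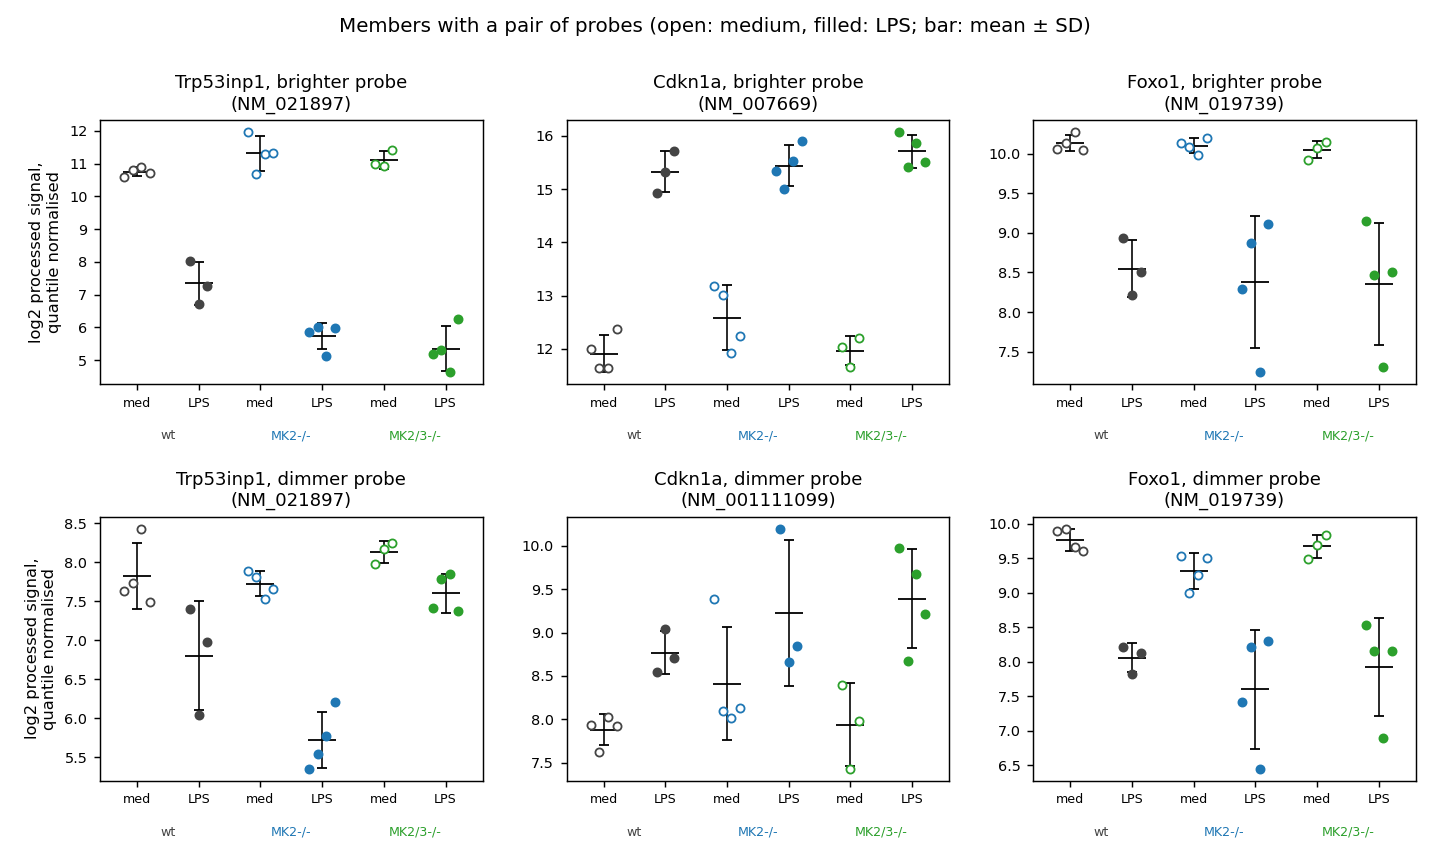
The brighter (top) and dimmer probe (bottom) of Trp53inp1, Cdkn1a and Foxo1 are plotted as log2 processed signal (y axis) by genotype and treatment, with a point per array and a bar for mean and SD. Under LPS the dimmer Trp53inp1 probe reads 7.37 to 7.85 in MK2/3-/- and 5.35 to 6.20 in MK2-/- arrays. The brighter probe reads 4.63 to 6.27 in MK2/3-/- and 5.14 to 6.00 in MK2-/- arrays.

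Among the FOXO factors, Foxo1 fell with LPS in both knockouts. The brighter of its 2 probes (NM_019739) read 9.92 to 10.27 on all 11 medium-treated arrays and 7.24 to 9.15 on all 11 LPS-treated arrays. The fall was 3.29-fold in MK2-/- (log2 difference -1.72, SE 0.35, adjusted p 0.000434) and 3.21-fold in MK2/3-/- BMDM (-1.68, SE 0.38, adjusted p 0.000995), with -1.58 in wt, and the dimmer probe gave -1.73 (adjusted p 0.000408), -1.74 (adjusted p 0.000746) and -1.72. The difference between the knockout responses was 0.03 (SE 0.51, adjusted p 0.994). Foxo3 passed no test of LPS, with differences of -0.06 in wt, 0.11 (SE 0.44, adjusted p 0.873) in MK2-/- and -0.02 (SE 0.47, adjusted p 0.978) in MK2/3-/- BMDM.

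The LPS-treated level of Foxo3 differed between the knockouts. Its dim probe (NM_019740) read 6.73, 6.84, 6.29 and 6.80 in LPS-treated MK2-/- and 6.07, 5.57, 3.56 and 4.33 in LPS-treated MK2/3-/- BMDM, with 3 of the latter 4 arrays well above background. In medium it read 6.59, 6.80, 6.37 and 6.47 in MK2-/- and 4.74, 4.74 and 5.23 in MK2/3-/- BMDM, and wt BMDM read 6.04, 5.70, 6.13 and 5.81 in medium and 6.62, 4.63 and 6.34 with LPS. All MK2/3-/- values were below all MK2-/- values of the same treatment. The difference was -1.78 under LPS (SE 0.44, adjusted p 0.0117) and passed the test, and -1.65 in medium (SE 0.47, adjusted p 0.0714) and did not. The neutrophil and B cell marker sums were also separated between the LPS-treated knockout groups. In medium the B cell sums were separated too (7.69 to 8.18 in MK2/3-/- against 7.28 to 7.59 in MK2-/-). The part of these markers in the Foxo3 differences was not tested. With normexp background correction the Foxo3 differences shrank to -0.85 and -0.73, and the call under LPS was lost with 75th percentile scaling (adjusted p 0.0518), among other alternatives.

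Of the remaining cell cycle genes, Ccng2 rose with LPS in both knockouts and Cdkn1b was not called. Ccng2, a FOXO-induced cyclin that slows the cycle, read 7.24 to 8.77 in medium and 8.57 to 9.91 with LPS. It rose 2.22-fold in MK2-/- (log2 difference 1.15, SE 0.30, adjusted p 0.00329) and 3.61-fold in MK2/3-/- BMDM (1.85, SE 0.32, adjusted p 7.71e-05), with 0.93 (SE 0.32) in wt, and the knockout responses differed by 0.70 (SE 0.43, adjusted p 0.715). The call in MK2-/- BMDM was lost with the methods' t-test after the same adjustment (adjusted p 0.0521). Cdkn1b, encoding the CDK inhibitor p27 and a FOXO target, read 10.13 to 12.44 and overlapped between LPS and medium in every genotype. Its LPS differences were 0.02 (SE 0.41) in wt, 0.43 (SE 0.38, adjusted p 0.390) in MK2-/- and -0.33 (SE 0.41, adjusted p 0.542) in MK2/3-/- BMDM.

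Counted together, 6 of the 10 members were called for LPS in MK2-/- BMDM, where 44.6% of all genes were called. Ddit4, Cdkn1a and Ccng2 were higher (17.5% of all genes) and Sesn1, Foxo1 and Trp53inp1 lower (27.1%). In MK2/3-/- BMDM 5 were called against a background of 48.2%, namely Cdkn1a and Ccng2 higher (20.2%) and Sesn1, Foxo1 and Trp53inp1 lower (27.9%). These shares are near the background. The median LPS difference of the members was 0.02 in MK2-/- and -0.13 in MK2/3-/- BMDM, beside -0.01 and 0.01 over all genes. In wt BMDM 5 members differed at least 2-fold, Sesn1, Ddit4, Cdkn1a, Foxo1 and Trp53inp1, as did 32.4% of all genes.

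Between the knockouts under LPS, 2 of 10 members were called, Ddit4 and Foxo3, both lower in MK2/3-/- BMDM, beside 13.5% of all genes called and 5.79% called lower. Against wt under LPS, 1 of 9 was called in MK2-/- BMDM, Trp53inp1 (11.6% of all genes called, 7.06% lower), and 2 of 9 in MK2/3-/- BMDM, Ddit4 and Trp53inp1 (23.6% called, 14% lower). In medium limma called none between the knockouts (2.83% of all genes), in MK2-/- against wt (8.81%) or in MK2/3-/- against wt (2.01%). At an unadjusted p below 0.05 there were 1, 3 and 1 members by limma, and 1, 3 and 2 by the methods' t-test. The shares given are for the adjusted p and are no background for these unadjusted counts. For the difference of the LPS response between the knockouts limma called none of 10 (0.0671% of all genes). At an unadjusted p below 0.05 there were 2, Ddit4 and Cdkn1a, a count for which that share is no background either. Compared with the wt response, the knockout response differed at least 2-fold for Trp53inp1 in MK2-/- BMDM (-2.16, beside 10.8% of all genes) and for Trp53inp1 and Ddit4 in MK2/3-/- BMDM (-2.36 and -1.75, beside 14.8%). The comparisons with wt share the wt arrays.

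The genes whose pattern over the 22 arrays was closest to Sesn1, by the root mean square difference of log2 values after centring each gene, were Tmem86a (0.46), Abhd15 (0.63), Rtn4rl1 (0.63), Fam78a (0.71) and Zfp704 (0.76). The median of all tested genes was 3.66, and the closest member, Trp53inp1, was at 1.28. As a description of these genes, their LPS differences were -6.32, -5.96, -6.87, -5.91 and -5.48 in wt and -7.34, -7.65, -7.08, -7.20 and -6.58 in MK2/3-/- BMDM.

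Sesn1 and Foxo3 lie near each other on chromosome 10, with 1 protein-coding gene, Armc2, between them in the RefSeq order. On the other side of Sesn1 lies Cep57l1, which fell with LPS in MK2-/- (log2 difference -4.06, SE 0.56, adjusted p 7.60e-06) and MK2/3-/- BMDM (-4.80, SE 0.56, adjusted p 1.03e-06) and differed by -2.75 in wt. Armc2 fell in MK2-/- BMDM (-1.37, adjusted p 0.0112) and differed by -0.05 (adjusted p 0.938) in MK2/3-/- BMDM, and its LPS-treated level was higher in MK2/3-/- than in MK2-/- BMDM (1.79, adjusted p 0.00808) where that of Foxo3 was lower. Beyond Foxo3, Afg1l (-1.26 in MK2-/- and -1.44 in MK2/3-/- BMDM) and Snx3 (-0.48 and -0.50) fell, and Cd164, further from Sesn1 on the Cep57l1 side, rose (1.51 and 1.60). None of these neighbours had a difference as large as Sesn1 in either knockout. In wt none could be lower, because Sesn1 was picked for the lowest difference there.

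**Figure D4:**
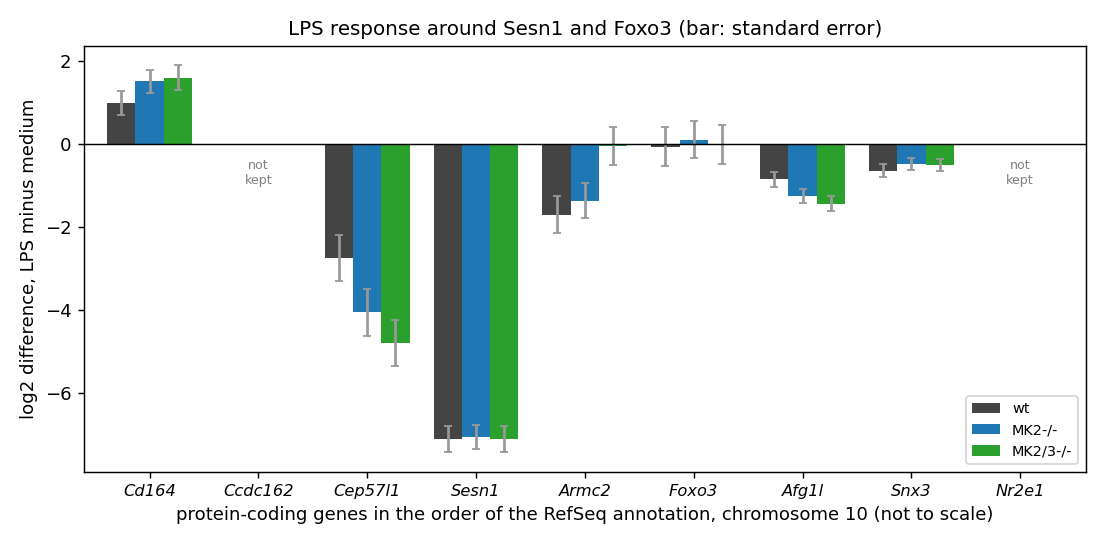
Bars give the log2 difference, LPS minus medium, with its standard error, in wt, MK2-/- and MK2/3-/- BMDM for protein-coding genes in their order on chromosome 10 (x axis, not to scale). Sesn1, picked for its wt difference, has the longest bars, Cep57l1 beside it is also below 0, and Foxo3 stays near 0. Ccdc162 and Nr2e1 had no kept probe.

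Genes of the pathways around the members were then examined, with the members themselves left out (Gadd45a and Ccng1 stand in more than 1 list). For reading the counts that follow, 17.5% of all genes rose and 27.1% fell in MK2-/- BMDM, and 20.2% rose and 27.9% fell in MK2/3-/- BMDM. Of 24 p53 targets 23 were tested, and of these 6 rose, 8 fell and 9 were not called in MK2-/- BMDM, and 5 rose, 11 fell and 7 were not called in MK2/3-/- BMDM. The median differences were -0.47 and -0.67, below the -0.01 and 0.01 over all genes, while called genes of the list lay on both sides of 0. The largest changes in MK2/3-/- BMDM were those of Zmat3, an RNA-binding p53 target (-4.87, SE 0.46, adjusted p 6.21e-08), Fas, a death receptor (4.34, SE 0.31, adjusted p 1.47e-09), and Polk, a translesion DNA polymerase (-3.69, SE 0.27, adjusted p 2.71e-09). In MK2-/- BMDM these genes changed by -3.80, 4.06 and -3.17, and in wt their differences were -2.71, 4.04 and -1.75. Under LPS, 3 of the 23 were lower in MK2/3-/- than in MK2-/- BMDM, beside 5.79% of all genes in that comparison. Among them were Polk (-0.89, adjusted p 0.026) and Trp53, encoding p53 itself (-1.12, adjusted p 0.00314). Their LPS responses differed between the knockouts by -0.52 (adjusted p 0.757) and -0.81 (adjusted p 0.507), which did not pass the test.

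Of 18 FOXO targets, 6 rose, 9 fell and 3 were not called in each knockout, beside 17.5% higher and 27.1% lower among all genes in MK2-/- and 20.2% and 27.9% in MK2/3-/- BMDM. The medians were -0.77 and -0.86, beside -0.01 and 0.01 over all genes. The largest changes in MK2/3-/- BMDM were in S1pr1, a sphingosine 1-phosphate receptor (-5.62, SE 0.49, adjusted p 1.95e-08), Klf2, a transcription factor that restrains inflammatory activation (-3.39, SE 0.49, adjusted p 1.09e-05), and Cited2, a transcriptional co-regulator (3.32, SE 0.45, adjusted p 5.72e-06). The LPS-treated level of S1pr1 was also lower in MK2/3-/- than in MK2-/- BMDM (-1.88, adjusted p 0.00984) and that of Cited2 higher (1.49, adjusted p 0.0246), whereas Klf2 differed by -0.34 (adjusted p 0.689). The LPS responses of S1pr1 and Cited2 differed by -2.04 (adjusted p 0.374) and 1.43 (adjusted p 0.53), which did not pass the test. Among 14 genes of the PI3K-AKT pathway upstream of FOXO, 4 rose, 5 fell and 5 were not called in MK2-/- BMDM, and 5 rose, 7 fell and 2 were not called in MK2/3-/- BMDM, where 44.6% and 48.2% of all genes were called in either direction. The medians of this list were 0.02 and -0.44. Inpp5d, encoding the lipid phosphatase SHIP1 (-5.48 in MK2-/- and -5.84 in MK2/3-/- BMDM), and Sgk1, an AKT-related kinase (-2.86 and -2.71), both fell.

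Sestrins act on the amino acid branch of mTORC1 control. The list for mTORC1 control held genes of that branch and also genes of TSC, of mTORC1 itself and of the kinase AMPK. Of its 30 genes 5 rose, 18 fell and 7 were not called in MK2-/- BMDM. In MK2/3-/- BMDM 4 rose, 18 fell and 8 were not called. Among all genes 27.1% and 27.9% fell, and 17.5% and 20.2% rose. The medians were -0.73 and -0.93, beside -0.01 and 0.01 over all genes. Wdr59, a subunit of GATOR2, rose with a log2 difference of 3.40 (SE 0.22, adjusted p 4.15e-10) in MK2-/- and 3.56 (SE 0.24, adjusted p 7.81e-10) in MK2/3-/- BMDM. Flcn, encoding folliculin, a regulator of the RAG GTPases, fell (-1.95, adjusted p 0.000981, and -3.32, adjusted p 7.81e-06), as did Deptor, an mTOR-binding inhibitor (-2.91, adjusted p 2.13e-07, and -2.98, adjusted p 4.18e-07). Of 14 cyclins, cyclin-dependent kinases and CDK inhibitors, 3 rose, 4 fell and 7 were not called in MK2-/- BMDM, and 3 rose, 5 fell and 6 were not called in MK2/3-/- BMDM, with medians of -0.28 and -0.26. These counts are near the background of 17.5% higher and 27.1% lower in MK2-/- and 20.2% and 27.9% in MK2/3-/- BMDM. Ccnd2, encoding cyclin D2 (7.77 and 7.72), and Cdk6, a partner of the D cyclins (2.95 and 2.14), rose, and Cdkn2c, encoding the CDK inhibitor p18 (-4.16 and -4.67), fell.

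**Figure D5:**
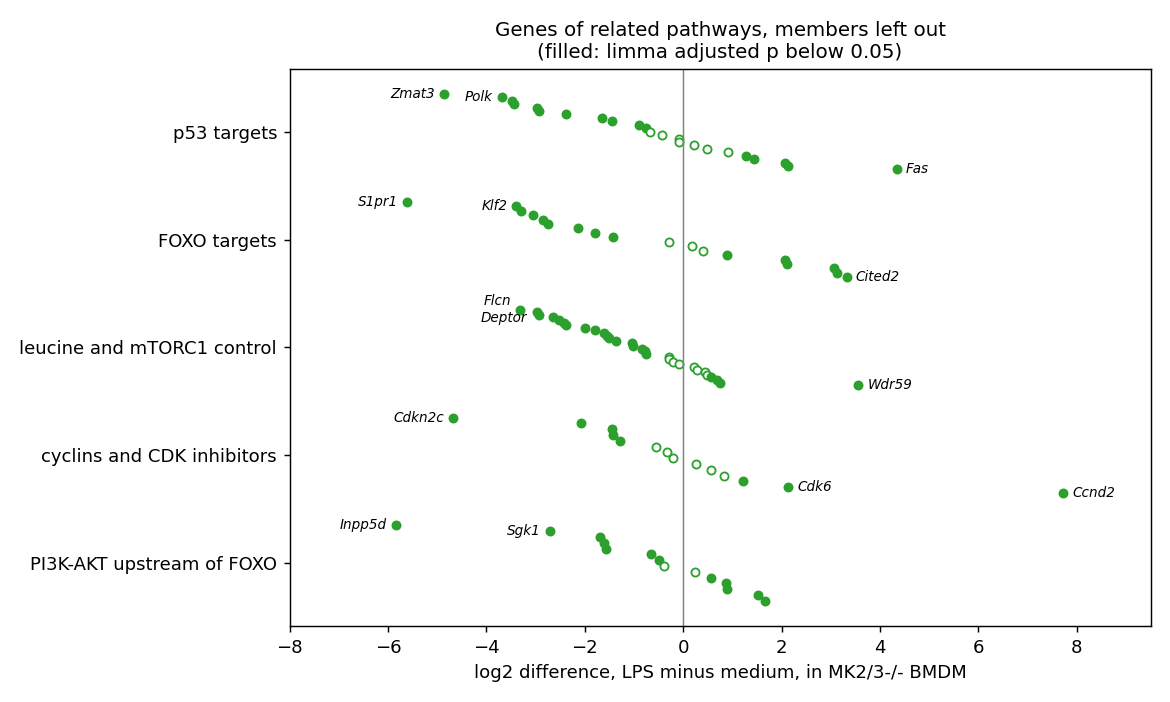
Each point is a gene of 1 of the 5 lists (y axis), placed by its log2 difference, LPS minus medium, in MK2/3-/- BMDM (x axis) and filled where the limma adjusted p was below 0.05; up to 3 of the largest called changes per list are named. Each list holds genes on both sides of 0, from Inpp5d at -5.84 to Ccnd2 at 7.72.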

How the data were processed

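RNA of 22 BMDM samples was labelled with Cy3, and each sample was hybridised to its own Agilent 1-colour array by the authors. The deposited scanner files give, per spot, a processed signal intensity from Agilent Feature Extraction 11.0.1.1, corrected for background and not normalised between arrays. A series table of log2 values, which the authors had quantile normalised and centred on each probe's baseline, was deposited as well. Its columns followed the centred scanner values with r between 0.992 and 0.999, their medians were between -0.196 and 0.074, and it served as an alternative. The array design refers to build mm9, whereas gene names, gene order and promoter windows come from RefSeq tables of GRCm38.p6.

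Of 62976 spots per array, 3671 controls were left out, and spots marked non-uniform or outlying were set to missing. No spot was saturated. Log2 processed signals were quantile normalised over the 22 arrays and spots of a probe were averaged. Probes with a RefSeq (29150) or GenBank (3719) accession were used, and 27509 were named through RefSeq. A probe was kept if it was well above background on 3 or more arrays, and the probe with the highest mean stood for its gene. A model with 6 group means was fitted with limma 3.58.1 in R 4.3.3 (data.table package, version 1.17.8), with eBayes and Benjamini-Hochberg adjustment over 22366 genes, of which 18372 have a symbol; p-values are two-sided. The fit was tested on simulated data. Within a group, no arrays were duplicates, the smallest median absolute difference being 0.25.

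Samples were grouped by their labels. The members and gene lists were chosen with earlier results of these data known. Members were all named with every probe; of each list, the 3 called genes with the largest LPS change in MK2/3-/- BMDM were named, except 1 that is not reported here, and 5 genes were named for likeness to Sesn1. Promoter motifs were chosen after the windows were seen. Alternatives were 75th percentile scaling, normexp background correction (offset 50, on median signals because the files hold no mean signal), the authors' table, no filter, other probe rules, only the groups compared, array weights, replicate blocks, the methods' t-test, a 2-fold minimum, leaving out each of 22 arrays, and leaving out both arrays with low Y-linked signal.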

Additional observations from a re-analysis of the deposited data

Results flagged for a closer look

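In 40 groups of 4 arrays, the array farthest from the others was set apart from them by more than the limit of Dixon's test in 3 cases, and chance marks about 1 in 20 such groups. Sesn2 read 11.3 in replicate 3 of LPS-treated MK2/3-/- BMDM, above the other replicates at 10.60 to 10.62. Sesn3 read 6.9 in replicate 2 of medium-treated MK2-/- BMDM, below the others at 8.66 to 8.92. Trp53inp1 read 5.14 in replicate 3 of LPS-treated MK2-/- BMDM, below the others at 5.87 to 6.00; this is the array with low Y-linked signal and 2927 spots set to missing.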

How the results depend on the processing

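The counts of members called for LPS, 6 in MK2-/- and 5 in MK2/3-/- BMDM, stayed within 1.5 times of these values under every alternative, although Ccng2 in MK2-/- was lost with the adjusted methods' t-test (adjusted p 0.0521) and Trp53inp1 in MK2/3-/- with the probe of highest wt induction (-0.52, adjusted p 0.141). Between the knockouts under LPS the count went from 2 to 1 with 75th percentile scaling, with only the groups compared and with the methods' t-test adjusted by Benjamini-Hochberg, each time through Foxo3. In medium it went from 0 to 1, again through Foxo3, with only the groups compared, array weights and the methods' t-test, unadjusted or adjusted. Against wt under LPS the adjusted t-test gave 0 in place of 1 for MK2-/- and 0 in place of 2 for MK2/3-/- BMDM, where Ddit4 and Trp53inp1 were lost, and the mean of all probes gave 1 for the latter. In medium the unadjusted t-test gave 3 members for MK2-/- and 2 for MK2/3-/- against wt, and only the groups compared gave 1 for MK2/3-/-. Shares of all genes at an unadjusted p are not given here. For the difference of the LPS response from wt, the probe with the highest wt induction left 0 members past 2-fold in MK2-/- and 1 in MK2/3-/- BMDM, as did the mean of all probes in MK2/3-/-. The t-test gives no value for these differences. Trp53inp1 reversed between the knockouts under LPS, to 0.75 with the mean of its probes and 1.89 with the probe of highest wt induction, which also turned MK2/3-/- against wt to 0.80. The cause was not tested. Ddit4 kept its call between the knockouts under LPS in every alternative, from -2.63 to -2.16.

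Leaving out each array gave 5 to 6 members past 2-fold in wt, 6 to 6 for LPS in MK2-/-, 5 to 5 in MK2/3-/-, 2 to 2 between the knockouts under LPS, and 0 to 1 in medium, where 1 was reached without replicate 2 of LPS-treated wt or replicate 1 or 3 of LPS-treated MK2/3-/- BMDM. Against wt under LPS it gave 0 to 1 for MK2-/-, with 0 reached without replicate 1 of LPS-treated wt, and 2 to 4 for MK2/3-/-, with 4 reached without replicate 1 of LPS-treated MK2/3-/- BMDM, through Cdkn1b and Foxo3. Members past 2-fold in the difference from the wt response numbered 1 to 2 in MK2-/-, with 2 reached without replicate 2 of medium-treated MK2-/- BMDM, and 2 to 3 in MK2/3-/- BMDM.

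With the replicate number within genotype as a random replicate block, or with the letter in the authors' array names, no count of members called changed (6, 5, 2, 1 and 2 where above 0). Deviations of same-numbered arrays correlated over 0.1 in 7 of 10 pairs, from -0.085 to 0.369, and 2 of the 10 pairs differed in age, so the numbers were not taken to pair the arrays. Arrays sharing a letter were of the same age in all 10 pairs and correlated over 0.1 in 7, from -0.085 to 0.419. Both MK2-/- arrays with low Y-linked signal share a number and a letter, and their deviations correlated at -0.085. Whether an LPS-treated and a medium-treated array came from the same animal is not given by the labels.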
